A study of Homo sapiens with 6 samples.

Results

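The circadian clock genes examined here are 10 transcriptional repressors and output factors of the molecular clock, namely PER1, PER2, PER3, CRY1, CRY2, NR1D1, NR1D2, BHLHE40, BHLHE41 and DBP. They were chosen by gene symbol alone from the 22077 symbols of the count table, and all 10 passed the expression filter, as did 14162 genes in all. RNA was sequenced from 3 cultures carrying a plasmid for overexpression of transketolase (TKT), an enzyme of the pentose phosphate pathway, and from 3 control cultures labelled VC and wt. The cell line is spelled Hu7 in the labels. The paper's Results name Huh7, a human hepatocellular carcinoma line, whereas its Methods name HCCLM3 for the sequencing. According to the Methods, the TKT plasmid carried GFP and PURO in its name and transfection was followed by selection, with no single clone mentioned, and it is not stated what plasmid, if any, the control cells carried. Neither an hour of harvest nor a step that synchronizes the cultures is given in the sources used here. The labels call the replicates separate biosamples. The comparison asks whether clock genes, and with them the state of the clock, differed between TKT-overexpressing and control cells.

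The libraries held between 30148788 and 37096156 counts. TKT itself rose from 493.8 ± 23.0 to 9448 ± 88.0 CPM, the counts scaled to a common library size (SD, n = 3 each). Of the 8 liver markers examined, AFP and ALB were abundant, at 8334 and 7914 CPM in control cells. APOB, the protein core of liver lipoproteins, had at most 6 counts in any library. The summed level of the liver markers lay between 18290 and 18650 CPM in control cultures and between 18670 and 18980 CPM on overexpression. The hepatocyte regulator HNF4A was the called marker, with a log2 fold change of -0.15 (adjusted p = 0.0072, and 0.0555 without TKT overexpression replicate 1). Markers of blood, endothelial and stromal cells summed to between 15.7 and 21.1 CPM over all libraries, nearly all of it from PECAM1, and 3 of the 6 had at most 3 counts or no entry. The part of these markers in the results that follow was not tested.

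The clock is a feedback loop of transcription. BMAL1 pairs with CLOCK or NPAS2 and activates genes through a short DNA motif called the E-box, and the PER and CRY proteins that are made in this way return to the nucleus and repress that pair. In a second loop the nuclear receptors encoded by NR1D1 and NR1D2 (REV-ERB alpha and beta) repress BMAL1 and NPAS2, while the ROR receptors activate them. BHLHE40 and BHLHE41 (DEC1 and DEC2) encode repressors that bind E-boxes themselves, and DBP activates output genes through another motif, the D-box. In liver the clock times bile acid, heme, lipid and glucose metabolism. In cultured cells that have not been synchronized, single cells keep their own time and the average over a culture is largely flat.

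The E-box is the motif by which these genes take part in the loop, so the sites found near their starts are shown first. In RefSeq windows of GRCh38.p14 from 250 bases before to 50 bases after a start, all 10 genes had at least 1 window, 13 windows in all. The perfect E-box CACGTG, which reads the same on both strands, was found in 4 of these 13 windows, those of PER1, NR1D2, BHLHE40 and BHLHE41, against 7.26% of all 35116 windows. The motif is printed in capitals within up to 30 bases, read 5′ to 3′ on the strand of the gene, and the distance is from the first base of the motif to the start.
BHLHE41, chr12:26125068-26125097, minus strand, 48 bases before the start: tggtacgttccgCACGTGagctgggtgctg
BHLHE40, chr3:4979187-4979209, plus strand, 245 bases before the start: tccaaCACGTGagactcatgtga
NR1D2, chr3:23945954-23945983, plus strand, 155 bases before the start: ggcgggcggggaCACGTGaggccgctcggc
NR1D2, chr3:23946004-23946033, plus strand, 105 bases before the start: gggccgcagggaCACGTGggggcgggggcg
PER1, chr17:8152560-8152589, minus strand, 173 bases before the start: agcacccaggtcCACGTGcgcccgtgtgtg
The starts are those of RefSeq and can lie inside the gene spans of GENCODE 29, as for PER1, NR1D2, BHLHE40 and BHLHE41. The NR1D2 window held a pair of E-boxes. The NR1D1 window held no CACGTG but the variant CACGTT, here on the opposite strand, where it reads AACGTG.
NR1D1, chr17:40100740-40100769, minus strand, 168 bases before the start: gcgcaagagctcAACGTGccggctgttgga
The same variant, searched on both strands, was present in 5.34% of all windows and also in those of PER2, CRY1 and CRY2. The D-box, searched as TTATGTAA or TTATGCAA on both strands, was present in 1.71% of all windows and in those of PER1, PER3 and NR1D2, and is shown because DBP acts through it.
PER1, chr17:8152416-8152445, minus strand, 30 bases before the start: agtgcccggcaTTATGCAAcccgcctcccc
PER3, chr1:7784103-7784132, plus strand, 177 bases before the start: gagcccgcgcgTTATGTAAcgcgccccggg
NR1D2, chr3:23945916-23945945, plus strand, 194 bases before the start: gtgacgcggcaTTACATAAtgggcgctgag
None of these motifs was found in the window of DBP. A match describes the letters of the window and not the binding of a factor.

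Of the 10 clock genes, 3 rose in TKT-overexpressing cells at an adjusted p under 0.05, namely BHLHE41, NR1D1 and NR1D2, and none fell (edgeR's quasi-likelihood test, Benjamini-Hochberg adjustment over all tested genes). Over all tested genes 5.69% rose and 4.94% fell by the same rule. At an unadjusted p under 0.05 the genes PER1 and BHLHE40 were higher too, 5 of 10 in all, and none was lower. Of all tested genes 11.8% were higher at that threshold and 23.8% differed in either direction. At an adjusted p under 0.05, DESeq2 and limma also called no clock gene lower. By the thresholds of the study, which add an absolute log2 fold change over 1, BHLHE41 alone was called, against 0.727% of all tested genes and 0.699% in the direction of a rise. On log2(FPKM + 1), which shrinks the change of low genes, the log2 fold change of BHLHE41 was 0.54 and the count by these thresholds was 0. For 5 of the 10 genes every overexpressing culture was above every control culture, and for 0 of them below, against 14.1% and 13.9% of all tested genes. The median log2 fold change of the 10 was 0.20, and that of all tested genes was 0.00082. These are averages over a culture, in which fewer expressing cells and less RNA per cell cannot be told apart. The largest response belonged to a clock gene of low abundance, and of the PER and CRY genes, the core of the repressor complex, none was called.

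**Figure D1:**
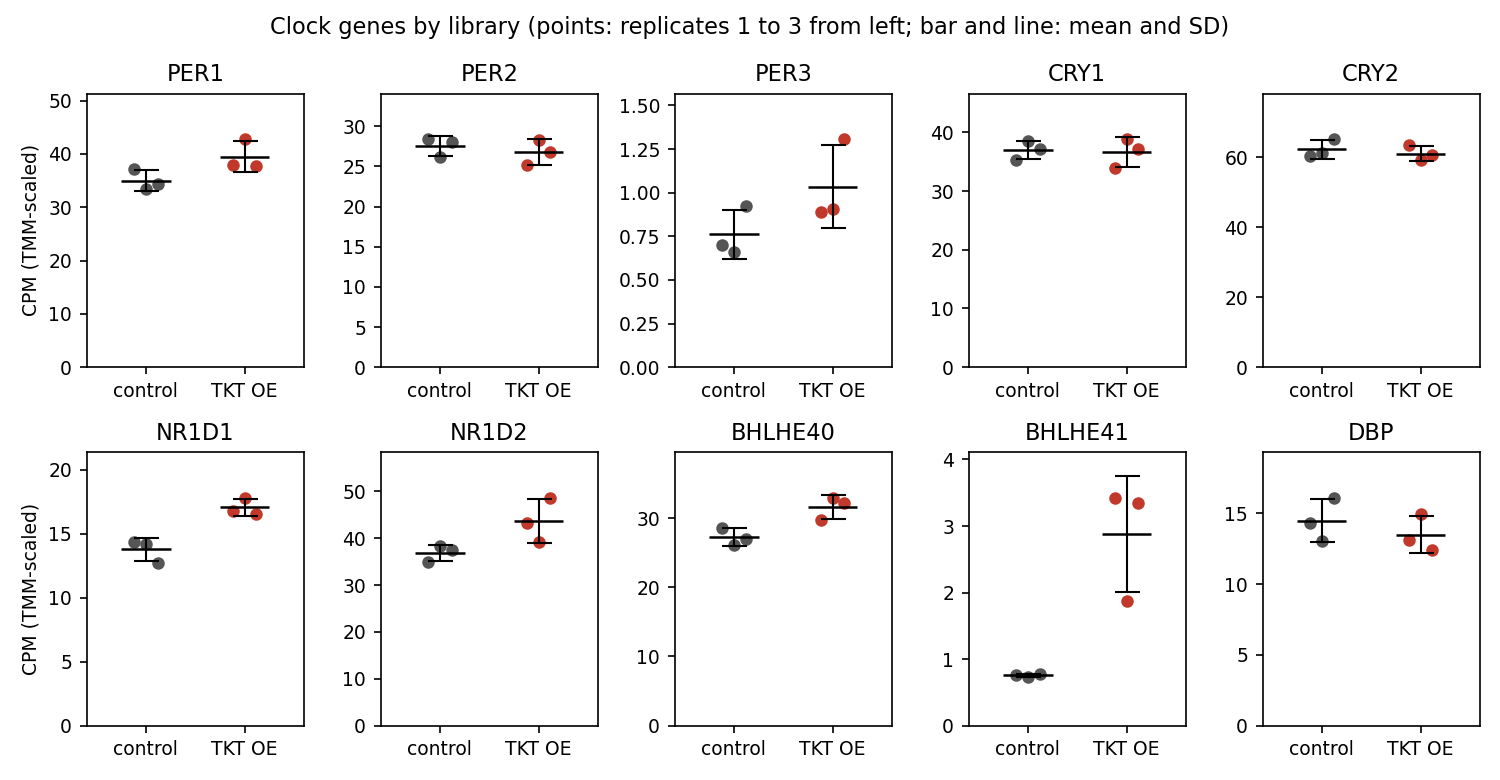
Level of each of the 10 clock genes in CPM (vertical axis, from 0) in 3 control (grey) and 3 TKT-overexpressing (red, TKT OE) cultures, with the mean as a horizontal line and the SD as an error bar. BHLHE41 stands between 1.88 and 3.43 CPM on overexpression and at or below 0.775 CPM in control cells, whereas PER2, CRY1, CRY2 and DBP overlap between conditions.

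BHLHE41, on the minus strand of chromosome 12 (26120026 to 26125127, GRCh38), rose most. It had 0.764, 0.724 and 0.775 CPM in the 3 control cultures and 3.43, 1.88 and 3.35 CPM in the 3 overexpressing cultures, from 22 to 26 and from 58 to 127 counts. Every overexpressing culture stood above every control culture, and replicate 2 was the lowest of the overexpressing ones. This came to a log2 fold change of 1.93 (standard error 0.29, 95% interval 1.33 to 2.54), a 3.82-fold difference, with an adjusted p of 1.19e-04 in edgeR's test. The gene was called in all 16 alternatives that were run, among them each fit without 1 library, where the log2 fold change lay between 1.79 and 2.16. Its exons share 162 bases, or 4.1% of their length, with those of SSPN on the opposite strand, a gene of the muscle membrane complex. SSPN had between 0.395 and 0.700 CPM in control cultures and 0.540, 1.26 and 1.49 CPM on overexpression, with a log2 fold change of 1.00 (adjusted p = 0.166). The overexpressing culture with the least SSPN, replicate 1, had 3.43 CPM of BHLHE41, close to the 3.35 CPM of replicate 3. SSPN had between 12 and 49 counts. The counting option for strand is not given in the sources used here, so reads in the shared bases cannot be assigned to either gene.

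BHLHE40, the paralog of BHLHE41 on chromosome 3, was far more abundant. It had 28.6, 26.1 and 26.9 CPM in control cultures and 29.7, 33.0 and 32.2 CPM on overexpression. The conditions did not overlap, but the lowest overexpressing culture was only just above the highest control culture. Its log2 fold change of 0.22 (standard error 0.07, 95% interval 0.07 to 0.37) had an adjusted p of 0.0604 in edgeR, which did not pass the threshold. The gene passed in 3 of 16 alternatives, with an upper-quartile normalization (0.0466) and with no filter (0.0492) or a stricter filter (0.0454) on low counts. Its exons share 4 bases with those of BHLHE40-AS1 on the opposite strand, which had 2 to 14 counts and did not pass the filter. Per length, BHLHE40 had 7.70 ± 0.33 FPKM and BHLHE41 0.195 ± 0.0053 FPKM in control cells (SD, n = 3), and on overexpression they had 8.97 ± 0.49 and 0.748 ± 0.23 FPKM. The log2 ratio of BHLHE41 to BHLHE40 went from -5.17 ± 0.055 to -3.51 ± 0.55 (CPM, SD, n = 3 each), a difference of 1.67 (standard error 0.32) with no overlap between conditions (p = 0.1 by an exact permutation test, two-sided, which is as low as 3 cultures against 3 can reach, and 0.2 after Benjamini-Hochberg adjustment over 6 ratios).

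Both REV-ERB genes were higher. NR1D1, on the minus strand of chromosome 17 (40092787 to 40100725), had 14.4, 14.2 and 12.8 CPM in control cultures and 16.8, 17.8 and 16.6 CPM on overexpression. All overexpressing cultures lay above all control cultures. On the log2 scale the rise was 0.31 (standard error 0.10, 95% interval 0.11 to 0.51), a 1.24-fold difference, with an adjusted p of 0.0434 in edgeR. That call is close to the threshold and was lost whenever 1 of the 6 libraries was left out. The adjusted p was 0.109, 0.124 and 0.0740 without TKT overexpression replicates 1, 2 and 3, and 0.0782, 0.0560 and 0.174 without control replicates 1, 2 and 3, while the log2 fold change stayed between 0.25 and 0.34.

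NR1D2, on the plus strand of chromosome 3 (23945260 to 23980618), had 35.0, 38.3 and 37.5 CPM in control cultures and 43.3, 39.2 and 48.7 CPM on overexpression. Here too the conditions did not overlap, though overexpression replicate 2 was only slightly above the highest control culture. The rise was 0.24 on the log2 scale (standard error 0.07, 95% interval 0.10 to 0.39), a 1.19-fold difference, with an adjusted p of 0.0287 in edgeR. The call was lost without TKT overexpression replicate 1 (adjusted p = 0.0923) or 3 (0.198, with a log2 fold change of 0.16) and without control replicate 1 (0.155) or 3 (0.0657). The log2 ratio of NR1D1 to NR1D2 differed by 0.07 (standard error 0.14) between conditions (exact two-sided permutation test, p = 0.7, adjusted p = 0.84), so a difference between the REV-ERB genes was not detectable at a precision of that error. NR1D2 overlaps NKIRAS1 on the opposite strand by 1332 bases, with 0 exonic bases shared. NKIRAS1 had a log2 fold change of 0.12 (adjusted p = 0.446 in edgeR).

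NR1D1 shares its 3′ end with THRA, which encodes thyroid hormone receptor alpha on the opposite strand. The genes overlap by 1081 bases, and 263 exonic bases, or 9.49% of the exons of NR1D1, lie in exons of both. THRA fell from 28.29, 29.03 and 27.59 CPM in control cultures to 23.15, 24.41 and 24.14 CPM on overexpression, with -0.24 on the log2 scale (standard error 0.07) and an adjusted p of 0.0360 in edgeR. The partners thus moved in opposite directions, and the log2 ratio of NR1D1 to THRA rose by 0.55 (standard error 0.05) with no overlap between conditions (exact two-sided permutation test, p = 0.1, adjusted p = 0.2). Like that of NR1D1, the call of THRA was lost whenever 1 of the 6 libraries was left out, with an adjusted p of 0.143, 0.0659 and 0.0664 without TKT overexpression replicates 1, 2 and 3 and of 0.0991, 0.0957 and 0.0585 without control replicates 1, 2 and 3. Reads from the shared bases cannot be told apart without strand.

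The PER genes, whose products form the repressor complex with the CRY proteins, were not called. PER1, which also answers quickly to hormones and to cyclic AMP signals, had 37.1, 33.4 and 34.4 CPM in control cultures and 37.9, 42.8 and 37.7 CPM on overexpression. Its conditions did not overlap, but control replicate 1 reached nearly the lowest overexpressing culture. Its log2 fold change of 0.17 (standard error 0.07, 95% interval 0.04 to 0.31) had an adjusted p of 0.104 in edgeR, and the gene was called in 0 of 16 alternatives, with adjusted p between 0.0811 and 0.430. PER2 had 28.4, 26.1 and 28.0 CPM in control cultures and 25.1, 28.3 and 26.8 CPM on overexpression. These ranges overlapped almost fully, and the log2 fold change was -0.04 (95% interval -0.20 to 0.11, adjusted p = 0.799). The log2 ratio of PER1 to PER2 went from 0.35 ± 0.047 to 0.56 ± 0.058 (SD, n = 3 each) with no overlap between conditions, a difference of 0.22 (standard error 0.043, exact two-sided permutation test, p = 0.1, adjusted p = 0.2). PER3 was barely expressed, with 20 to 31 counts in control cultures and 28 to 43 on overexpression. At that depth its log2 fold change of 0.44 had a 95% interval from -0.35 to 1.22, so neither a rise nor a fall was shown. PER3 shares exonic bases with UTS2 on the opposite strand, 10.7% of its exon length, and UTS2 was not analysed here.

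The CRY genes encode the strongest repressors of the BMAL1 pair. CRY1 had 35.4, 38.5 and 37.2 CPM in control cultures and 33.9, 38.9 and 37.2 CPM on overexpression. Its log2 fold change was -0.01 (95% interval -0.15 to 0.12, adjusted p = 0.931). CRY2 had 60.3, 61.2 and 65.2 CPM in control cultures and 63.4, 59.2 and 60.6 CPM on overexpression, with a log2 fold change of -0.03 (95% interval -0.14 to 0.08, adjusted p = 0.821). In both genes the conditions overlapped, and small changes in either direction, within these intervals, remain possible. The log2 ratio of CRY1 to CRY2 differed by 0.01 (standard error 0.096) between conditions (exact two-sided permutation test, p = 1, adjusted p = 1).

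DBP, the D-box activator and in liver one of the most rhythmic clock outputs, had 14.4, 13.0 and 16.1 CPM in control cultures and 13.1, 14.9 and 12.4 CPM on overexpression. The conditions overlapped, and the log2 fold change of -0.11 (95% interval -0.33 to 0.12, adjusted p = 0.620) pointed away from that of NR1D1. The exons of DBP share 661 bases, or 10.1%, with those of SPHK2 on the opposite strand, which had a log2 fold change of -0.09 (adjusted p = 0.564).

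Per length, the order of the clock genes in control cells was CRY2, CRY1, BHLHE40, NR1D2, NR1D1, PER1, PER2, DBP, BHLHE41 and PER3, from 9.98 ± 0.39 to 0.093 ± 0.017 FPKM (SD, n = 3). Neighbours whose 3 values overlapped were CRY1 with BHLHE40 and NR1D1 with PER1. On overexpression BHLHE40 (8.97 FPKM) stood above CRY1 (7.65 FPKM), CRY1 overlapped NR1D2 (7.54 FPKM), and NR1D2 overlapped NR1D1 (6.47 FPKM). The other positions were the same in both conditions, with BHLHE41 and PER3 below 1 FPKM in every library.

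**Figure D2:**
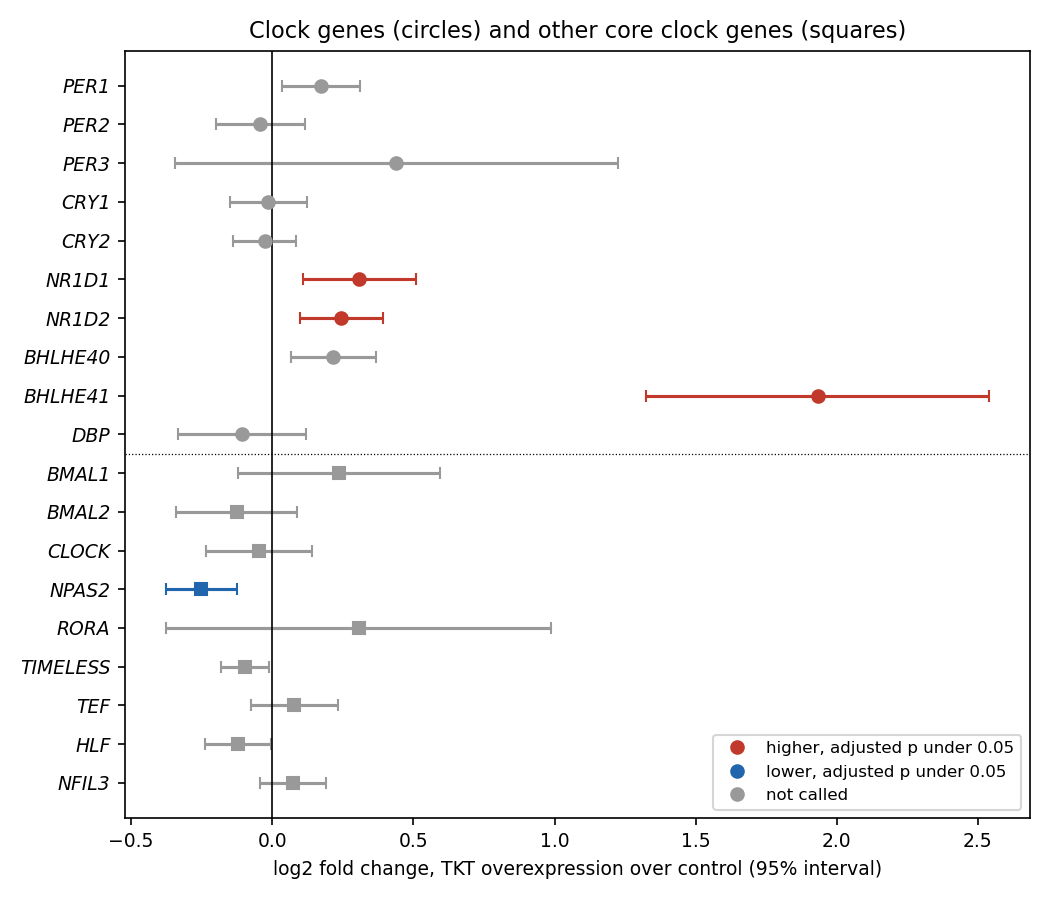
Log2 fold change of TKT overexpression over control (horizontal axis) with 95% intervals for the 10 clock genes (circles) and the 9 tested genes of a list of other core clock genes (squares), coloured by call. BHLHE41 at 1.93 lies far from the rest, NR1D1 and NR1D2 are the other genes called higher, and NPAS2 at -0.25 is the only one called lower.

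The activators and further genes of the core clock come next. Of 12 other core clock genes, 9 were tested, 0 rose and 1 fell, NPAS2, against 10.6% of all tested genes called in either direction. The median log2 fold change of the 9 was -0.05. At an unadjusted p under 0.05 in edgeR's test, TIMELESS (0.0274) and HLF (0.0441) were lower too, and none was higher. Of all tested genes 23.8% differed at that threshold. For 2 of the 9, NPAS2 and TIMELESS, every overexpressing culture was below every control culture, as for 13.9% of all tested genes. NPAS2, the partner of BMAL1 and a target of the REV-ERB receptors, had 48.9, 48.1 and 45.3 CPM in control cultures and 38.7, 38.2 and 42.7 CPM on overexpression. All overexpressing cultures were below all control cultures. The fold change was -0.25 on the log2 scale (standard error 0.06, 95% interval -0.38 to -0.13) with an adjusted p of 0.0091 in edgeR, and the call was lost without TKT overexpression replicate 1 (0.0681) or control replicate 1 (0.0598). BMAL1, the other target of the REV-ERB receptors in the loop, had 4.36, 4.74 and 4.59 CPM in control cultures and 4.29, 6.32 and 5.53 CPM on overexpression. Overexpression replicate 1 was below all control cultures and the other two were above them, and the log2 fold change of 0.24 had a 95% interval from -0.12 to 0.59 (adjusted p = 0.449). Hence NPAS2 was lower and BMAL1 was not called in the same libraries in which NR1D1 and NR1D2 were higher.
CLOCK, the usual partner of BMAL1, had a log2 fold change of -0.05 (adjusted p = 0.811), and BMAL2, a paralog of BMAL1, one of -0.13 (0.508). RORA, the activating receptor of the second loop, had between 22 and 68 counts and a log2 fold change of 0.31 with a 95% interval from -0.38 to 0.99. The PAR bZIP factors TEF and HLF, which share the D-box with DBP, gave 0.08 (adjusted p = 0.587) and -0.12 (0.195), and NFIL3, which represses through the same motif, gave 0.07 (0.470). TIMELESS, whose mammalian product works mainly in DNA replication, had -0.10 (0.146). CIART, another repressor of the BMAL1 pair, had at most 16 counts and did not pass the filter. The rest of the list was not analysed here.

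Whether the conditions differed in clock phase was examined with sets of genes that are high at opposite times in a running clock. One set held NR1D1, NR1D2, DBP, PER3 and TEF, and the other held BMAL1, NPAS2, CLOCK, NFIL3 and CRY1. A shift of phase shared by the cells of a culture moves such sets in opposite directions. The mean log2 CPM of the NR1D1 set was 3.42, 3.41 and 3.55 in control cultures and 3.58, 3.65 and 3.72 on overexpression, higher by 0.19 (standard error 0.06). The mean of the BMAL1 set was 4.63, 4.65 and 4.64 in control cultures and 4.54, 4.67 and 4.69 on overexpression, a difference of -0.0042 (standard error 0.047). So 1 set was higher without overlap and the other overlapped.
The difference between the sets, a phase contrast, was -1.18 ± 0.081 in control cells and -0.98 ± 0.034 on overexpression (SD, n = 3 each), a difference of 0.20 (standard error 0.05). It is given as a description with no test, since it is a score over genes chosen with results known. Without PER3, the gene of fewest counts, it was 0.14 (an alternative chosen after seeing the data), and on log2(FPKM + 1), which gives little weight to low genes, it was 0.12. With PER1, PER2, BHLHE40 and BHLHE41 added to the NR1D1 set it was 0.36. The log2 fold changes of these added genes were 0.17, -0.04, 0.22 and 1.93, so the larger value rests mostly on BHLHE41, a gene of low counts. Within the sets the genes did not move together. DBP had a log2 fold change below 0 where NR1D1 and NR1D2 were higher, and BMAL1 one above 0 where NPAS2 was lower, neither of them called. The log2 ratio of NR1D1 to BMAL1 was 1.722, 1.585 and 1.475 in control cultures and 1.968, 1.496 and 1.582 on overexpression, a difference of 0.09 (standard error 0.16, exact two-sided permutation test, p = 0.7, adjusted p = 0.84), and it was -0.05 without TKT overexpression replicate 1. On log2(FPKM + 1) the difference in this ratio was 0.169 (exact two-sided permutation test, unadjusted p = 0.1, as low as 3 cultures against 3 can reach). BMAL1, at 0.655 FPKM in control cells, has little weight on that scale. The value of this ratio thus depended on the scale. With 3 cultures against 3 the permutation test cannot go below 0.1 on either scale, so it cannot decide whether phase differed. Nor is a step that synchronizes the cultures given in the sources used here. With 1 harvest per culture, a shift of phase, a change of amplitude and a change of mean level cannot be told apart.

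**Figure D3:**
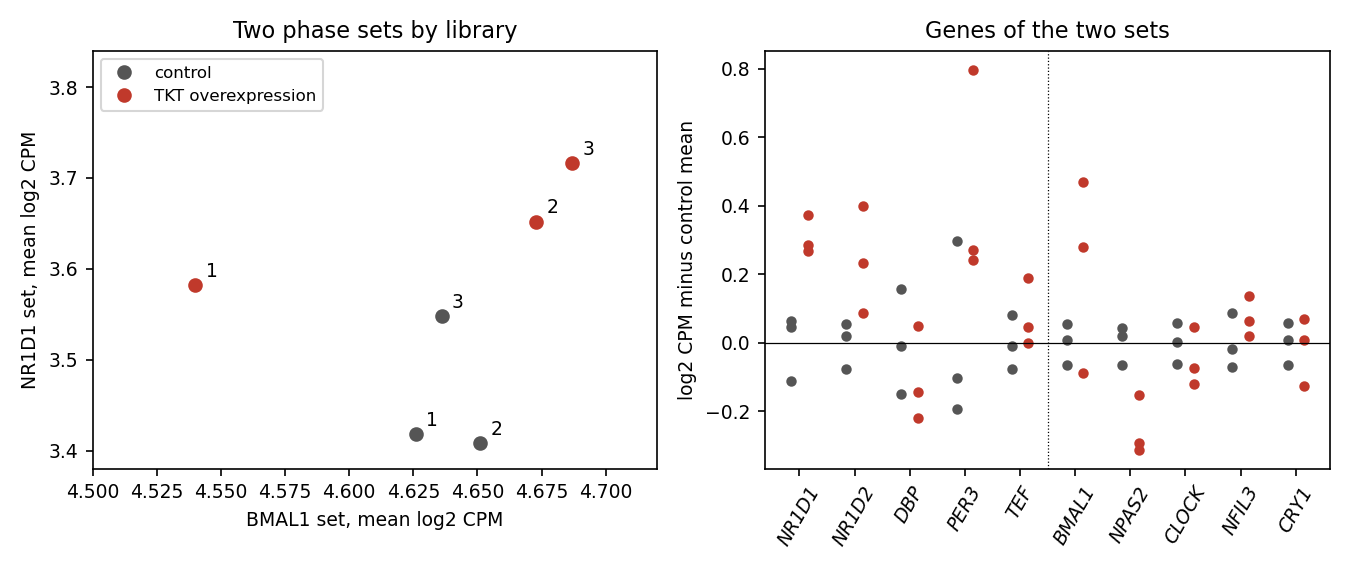
Left, mean log2 CPM of the BMAL1 set (horizontal) against that of the NR1D1 set (vertical) in each library, with replicate numbers; right, each gene's log2 CPM minus its control mean, with the NR1D1 set to the left of the dotted line. The overexpressing cultures (red) lie above the control cultures (grey) on the vertical axis, from 3.58 to 3.72 against 3.41 to 3.55, and spread around them on the horizontal axis.

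Enzymes that set the stability of PER and CRY proteins were examined next. Of 10 such kinases, ligases and other regulators, all tested, 1 rose and 0 fell, against 5.69% and 4.94% of all tested genes, and the median log2 fold change was 0.07. The list includes FBXL21P, a pseudogene by its symbol, which had 41 to 81 counts and was not called. The gene called was SIRT1, a deacetylase linked to the clock, with 14.5 ± 0.98 CPM in control cells and 18.5 ± 0.59 on overexpression (SD, n = 3 each) and a log2 fold change of 0.35 (adjusted p = 0.0172). Its call was lost without TKT overexpression replicate 1 (0.0554) or 3 (0.0644) and without control replicate 1 (0.0926) or 3 (0.0551). The kinases of PER, CSNK1D, CSNK1E and CSNK1A1, had log2 fold changes of 0.11, 0.02 and 0.02 and were not called.
Of 8 output genes of the clock, 7 were tested, 3 rose and 0 fell, with a median of 0.05, against 5.69% of all tested genes higher and 4.94% lower. KLF10, a zinc finger repressor that is also induced by TGF-beta, rose from 30.3, 31.1 and 28.7 to 50.1, 49.3 and 49.3 CPM, or by 0.72 on the log2 scale (standard error 0.06, adjusted p = 1.32e-08). It was called in all 16 alternatives. ALAS1, the rate-limiting enzyme of heme synthesis, had a log2 fold change of 0.19 (adjusted p = 0.0108, and 0.0707 without TKT overexpression replicate 2). WEE1, a kinase that holds back mitosis, had 0.18 (adjusted p = 0.0347), and its call was lost without TKT overexpression replicate 1 (0.187) or 3 (0.0982) and without control replicate 1 (0.0589) or 3 (0.128). NAMPT, NOCT and PPARA were not called, with 0.02, 0.05 and -0.02. POR was not called either, at -0.10 (adjusted p = 0.1425 in edgeR). Every overexpressing culture was below every control culture for POR, as for 13.9% of all tested genes.

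Some clock genes also answer to signals outside the clock, PER1 to cyclic AMP and glucocorticoids and BHLHE40 to hypoxia. Genes of these signals are given beside them, and their part in the clock gene results was not tested. Of 9 CREB-responsive genes, 7 were tested, 2 rose and 0 fell, and all 7 had a log2 fold change above 0, with a median of 0.29. Those called were PDE4D, a cyclic AMP phosphodiesterase, at 0.29 (adjusted p = 0.0161) and the nuclear receptor gene NR4A3, at 1.37 (0.0386). PDE4D lost its call without TKT overexpression replicate 3 (0.0886) or control replicate 3 (0.0802). NR4A3 had between 8 and 68 counts and kept its call in 1 of the 6 fits without a library, that without control replicate 2, with adjusted p between 0.0602 and 0.158 in the other 5. SIK1, a kinase induced by CREB, stood at 25.6 CPM in TKT overexpression replicate 1 and 14.1 CPM in control replicate 3 and between 0.988 and 1.64 CPM in the other 4 libraries, and reads from its near-identical copy SIK1B may be split between them. Of 9 glucocorticoid receptor targets, all tested, 2 rose and 0 fell, with a median of 0.10. DUSP1, a phosphatase of MAP kinases that is also an immediate-early gene, had 1.26 (adjusted p = 4.09e-13) and the metallothionein MT2A 0.20 (0.00152). The further targets FKBP5, TSC22D3 and KLF9 had -0.02, 0.15 and -0.00013 and were not called. ZBTB16, SGK1, ERRFI1 and TAT had -0.02, 0.05, 0.10 and 0.58 and were not called either. Of the 9 targets, 6 had a log2 fold change above 0 and 3 below.
Of 10 targets of hypoxia-inducible factors, 9 were tested, 3 rose and 0 fell, with a median of 0.20. ADM, a vasoactive peptide, had 0.52 (adjusted p = 0.00219), NDRG1 had 0.31 (1.11e-04), and KDM3A, a histone demethylase, had 0.20 (0.0341). KDM3A kept its call in 1 of the 6 fits without a library, that without control replicate 2, with adjusted p between 0.0544 and 0.204 in the other 5. VEGFA, PDK1 and SLC2A1 had 0.02, -0.13 and -0.12 and were not called. ANKRD37, EGLN3 and BNIP3 had 0.37, 0.23 and 0.05 and were not called either. Of the 9 tested targets, 7 had a log2 fold change above 0 and 2 below. CA9 had at most 1 count. By the called share, the signal lists held from 2 of 9 to 3 of 9 tested genes higher, against 5.69% of all tested genes.

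BHLHE41 had the smallest p of the clock genes, so the genes whose levels ran most like it were listed. Among 9127 other tested genes whose log2 CPM averaged 3 or more, the highest Pearson correlations of log2 CPM with BHLHE41 over the 6 libraries were those of CNNM1 (0.994), TMEM45A (0.993), SRGAP1 (0.993), FGF2 (0.991) and VPS13D (0.989). All 5 were higher on overexpression, with log2 fold changes from 0.21 to 0.58 and adjusted p between 3.30e-05 and 0.0239 in edgeR. In all, 135 of the 9127 genes had a correlation above 0.95. The 6 values fall into the 2 conditions and share library and depth, so these correlations are a description with no test.

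**Figure D4:**
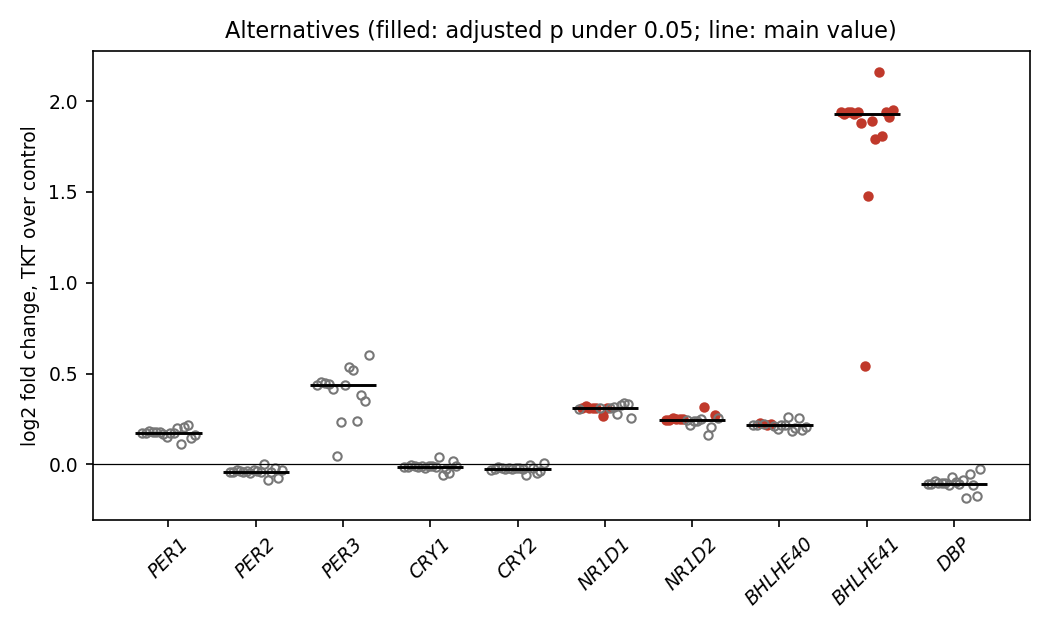
Log2 fold change of each clock gene (vertical axis) under each alternative way of processing the data, filled red where the adjusted p is under 0.05 and open where it is not, with the reported value as a line. PER3 has 14 alternatives and the others 16. BHLHE41 is called in all 16, NR1D2 in 8, NR1D1 in 7 and BHLHE40 in 3, and PER1, PER2, PER3, CRY1, CRY2 and DBP in none.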

How the data were processed

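RNA-seq of 3 TKT-overexpressing and 3 control cultures was analysed. According to the Methods and the submitters' processing notes, the authors trimmed reads with fastp 0.22.0, aligned them with HISAT2 2.1.0 to hg38 and counted them with featureCounts. Annotation, strand and multi-mapping options are not given in the sources used here. The deposited counts are whole numbers per gene symbol without normalization, and the deposited FPKM values were made by the authors from them. No per-sample column was left unused (0).

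The test was run on the counts in edgeR 4.0.16 under R 4.3.3 (minimum count of 10 in filterByExpr, TMM, robust quasi-likelihood test, no pairing). Calls rest on an adjusted p under 0.05 over all 14162 tested genes. CPM are TMM-scaled, and FPKM were used to compare genes. The script was tested on simulated counts. Spread between 3 cultures, which may be technical, sets the precision. In edgeR's test the p-values weigh the difference between conditions against that spread, estimated with information shared across genes. The biological coefficient of variation was 0.113. Gene positions come from GENCODE 29 and motif windows from RefSeq.

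The members and lists were chosen with earlier results of these data known. The genes named are the 10 clock genes, the other core clock genes, called genes of the other lists, TKT, and the 5 genes most like the clock gene of smallest p. Genes of the count table that overlap a clock gene, and UTS2, are named too. Others were named after their values were seen, namely list genes that were not called. Ratios within a gene pair other than NR1D1 to BMAL1 were chosen after seeing the data. Alternatives were DESeq2 1.42.0, limma 3.58.1 (voom, log2(FPKM + 1) and log2(FPKM + 0.1)), other normalizations and filters, the replicate number as a block, and each library left out. Some list genes are not reported here.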

Additional observations from a re-analysis of the deposited data

How the results depend on the processing

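BHLHE41 was called higher in all 16 alternatives, and 0 clock genes were called lower in any. The count of 3 clock genes called higher was 1 with limma-voom, 1 with the replicate number as a block and between 1 and 2 in the fits without 1 library. DESeq2 called 2, and other normalizations and filters 3 to 4. Past the thresholds of the study, the count of 1 fell to 0 on log2(FPKM + 1), where the pseudocount shrinks the low BHLHE41 to a log2 fold change of 0.54. The count of 1 other core clock gene was 0 on log2(FPKM + 1), 0 on log2(FPKM + 0.1), 0 with the replicate block and between 0 and 1 without 1 library. The phase contrast of 0.196 was 0.116 on log2(FPKM + 1) and between 0.165 and 0.242 without 1 library. With PER1, PER2, BHLHE40 and BHLHE41 added it was 0.359, and BHLHE41 had by far the largest log2 fold change of these, 1.93.

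Small values changed sign. In the fits without 1 library, the log2 fold change of PER2 lay between -0.0859 and 0.000118 (above 0 without TKT overexpression replicate 1), that of CRY1 between -0.0578 and 0.0388 (above 0 without that library or control replicate 2, where it was 0.0165), and that of CRY2 between -0.0563 and 0.0061 (above 0 without control replicate 3). The difference in the NR1D1 to BMAL1 log2 ratio was -0.0548 without TKT overexpression replicate 1 and otherwise between 0.0285 and 0.181 without 1 library. With all libraries it was 0.169 on log2(FPKM + 1) (exact two-sided permutation test, p = 0.1). The cause of these changes of sign was not tested.

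Same-numbered libraries did not deviate together, with correlations of -0.211, -0.418 and -0.326, and no library correlated best with its own number, so the numbers were not taken as pairs. TKT overexpression replicates 1, 2 and 3 correlated best with control replicates 3, 1 and 2, at 0.191, 0.294 and 0.397. A pairing in that order was not tested. With the replicate block in edgeR, calls over all genes went from 1505 to 697. The adjusted p was 0.104 for NR1D1, 0.0816 for NR1D2, 0.00253 for BHLHE41, 0.0526 for NPAS2 and 0.0968 for THRA. Taken as the mean of same-numbered differences, the NR1D1 to BMAL1 difference is 0.0881 by construction (p = 0.5, exact sign-flip test). With 3 pairs that test cannot reach p under 0.05. Other normalizations moved the median of all genes by at most 0.013. In the fits without 1 library, 1 condition had 2 cultures. Genes of under 50 counts, such as PER3, were limited by depth.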
